A study of Mus musculus with 8 samples.

Results

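The proteasome genes described here were those whose array annotation gave a gene symbol made of Psm, a letter from a to g and a number. There were 49 of them among 19411 genes on the array. Of these, 47 encode subunits of the proteasome, its activators and inhibitor, or its assembly factors. The other 2 are Psmc3ip (a partner of meiotic recombination enzymes) and Psme3ip1 (a protein that binds the proteasome activator Psme3). They share the start of the name but are not themselves subunits, activators, inhibitors or assembly factors, and are called name-only below. They meet the rule and so are counted among the 49, and the main counts are also given for the 47. All 49 had levels past the filter that removed the lowest 30% of genes, and so all were among the 13587 genes tested.

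RNA came from C57/Bl6 mice and was measured on 8 Affymetrix arrays, 1 per sample,. Sperm from the caudal epididymis gave 6 arrays, of which 3 were from males on a control diet, 2 from males on a low protein diet and 1 from the caloric restriction diet. Epididymal tissue gave 2 arrays, 1 for the control and 1 for the low protein diet. Control and low protein males were on their diet to an age of 9 to 12 weeks, and no age is stated for caloric restriction, so age and diet cannot be told apart there. All groups carried the same strain and no engineered allele is named. The labels do not say whether a sample pooled several males, nor whether replicates were different males. The p-values below therefore reflect how far these arrays differ from each other, and that spread may be technical.

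The proteasome is the barrel-shaped protease that degrades ubiquitin-tagged proteins. Its core has outer rings of alpha subunits, which gate entry, and inner rings of beta subunits, some of which cut peptide bonds. A regulatory particle caps the core: ATPase subunits unfold substrates, and non-ATPase subunits recognise ubiquitin and remove it. Sperm carry little active transcription, and much of the RNA in them is left from spermatids, in which histones and cytoplasm are removed before release. In many tissues interferon induces immunoproteasome subunits, which take the place of the standard cutting subunits.

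Sperm preparations were stated to be above 99.5% pure by microscopy, and a PCR test for 2 transcripts of the surrounding tissue had been used to reject others. All 20 spermatid markers examined were higher in sperm than in epididymis, and their summed linear level was 32328 to 63419 on sperm arrays against 4756 to 4779 on epididymis arrays. All 12 smooth muscle markers, 14 of 16 epithelial markers and 8 of 9 matrix markers tested were lower in sperm. Over all genes tested, 18.4% were higher in sperm and 30.1% lower at an adjusted p under 0.05 in limma. Epithelial markers were not at 0 in sperm. Their summed level covers the 25 on the array, of which 16 passed the filter. It was 12242 to 15488 in control, 5757 to 10326 in low protein sperm and 10338 on the caloric restriction array, against 29068 to 29132 in epididymis. Of 11 leukocyte markers tested, 1 was higher in sperm (Lyz2) and none was lower, at an adjusted or an unadjusted p under 0.05. Low protein sperm replicate 2 stood apart, with a correlation over genes of 0.71 to 0.86 with the other sperm arrays, which correlated with each other at 0.85 or more.

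Most proteasome transcripts were at lower levels in sperm than in epididymis. Of the 49 genes, 32 (65.3%) were lower at an adjusted p under 0.05, against 30.1% of all genes tested, and 1 was higher, Psmc3ip, against 18.4% of all genes. The median difference of the 49, sperm minus epididymis, was -0.66 on the log2 scale, and that of all genes was -0.08. Among the 47 proteasome genes proper, 32 were lower and 0 higher, with a median of -0.77. On 31 of the 49 (63.3%), all 6 sperm arrays lay below both epididymis arrays, a pattern seen for 35.6% of all genes. The reverse held for 2, Psmc3ip and Psme3ip1, against 24.8% of all genes. In this bulk RNA, fewer cells that contain a transcript and less of it per cell cannot be told apart. The part that the epithelial, muscle and spermatid RNA given above plays in the difference was not tested.

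The size of this difference depended on how arrays were scaled. After quantile normalization of the deposited values, 17 genes were lower and 3 higher, with a median of -0.29, where 19.4% and 17.8% of all genes were. After cyclic loess, 20 were lower and 4 higher, with a median of -0.24, where 24.0% and 26.6% of all genes were. All of those 17 and 20 were among the 32. The 3 higher were Psmc3, Psmc3ip and Psme3ip1, and the 4 higher were the same and Psmd8. These scalings also moved the median of all genes from -0.08 to 0.02 and 0.06, and the share of all calls that were higher from 37.9% to 47.8% and 52.5%. Relative to all genes, the proteasome median was -0.58 as deposited, -0.31 after quantile normalization and -0.30 after cyclic loess. In all, 7 of the 49 differences turned in sign with quantile normalization (Psma6, Psmb1, Psmb4, Psmb5, Psmb6, Psmb9 and Psmg4), and 8 with cyclic loess (the same and Psmc2). Of these, Psmb6 and Psmc2 were among the 32. Leaving out the low protein epididymis array, which left 1 epididymis array, reduced the calls to 14 lower and 0 higher, against 12.5% and 7.76% of all genes. Those 14 (Psma1, Psma2, Psma4, Psmb2, Psmb7, Psmc4, Psmc6, Psmd1, Psmd12, Psmd14, Psmd5, Psmd6, Psmd7 and Psme1) were lower in each of the 8 fits that left out 1 array.

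**Figure D1:**
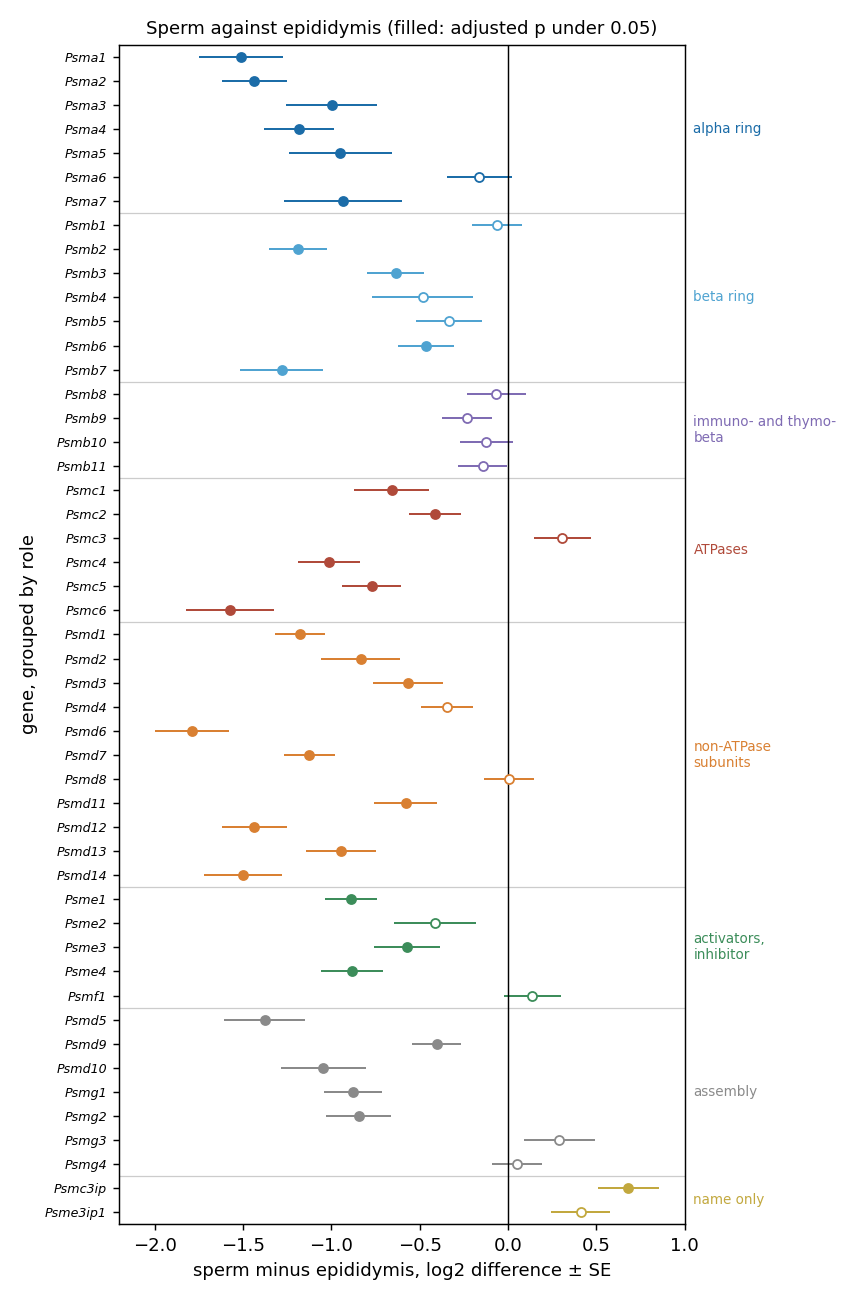
Sperm minus epididymis log2 difference (x axis) with its standard error for each of the 49 genes (y axis, grouped by role); filled points have an adjusted p under 0.05. Of the 33 filled points, 32 lie left of 0 and 1, Psmc3ip, lies right of it; the 4 immunoproteasome and thymoproteasome genes lie near 0. After cyclic loess 8 points change side, of which Psmb6 and Psmc2 are filled here.

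In the alpha ring, 6 of 7 genes (85.7%) were lower in sperm, against 30.1% of all genes, and the median difference was -0.999. The calls of Psma5 and Psma7 were lost under both quantile normalization and cyclic loess, and that of Psma3 under quantile normalization. Psma1 read 7.37, 7.96 and 7.57 in control sperm, 7.34 and 6.66 in low protein sperm, 7.02 on the caloric restriction array, and 8.91 and 8.77 in epididymis. Its lowest epididymis value was above its highest sperm value, and the fitted fall was 2.85-fold (log2 -1.51 ± 0.24, SE, adjusted p = 0.0012). Psma2 read 6.36, 6.92 and 6.52 in control sperm, 6.40 and 6.29 in low protein sperm, 6.45 on the caloric restriction array, and 7.88 and 7.96 in epididymis. Again no sperm array reached the epididymis arrays, and the difference was -1.44 ± 0.18 (adjusted p = 0.000469). The member of the ring that was not called in the values as deposited was Psma6. It read 8.28, 8.47 and 8.19 in control sperm, 8.69 and 9.09 in low protein sperm, 9.28 on the caloric restriction array, and 8.72 and 8.77 in epididymis. The epididymis values of Psma6 thus lay above the control sperm and between the low protein sperm arrays, and its difference was -0.16 ± 0.18 (adjusted p = 0.481), a value singled out after it was seen. After quantile normalization and cyclic loess the Psma6 difference was 0.33 and 0.52, neither past the threshold.

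In the beta ring, 4 of 7 genes (57.1%) were lower, against 30.1% of all genes, and the median difference was -0.48. The calls of Psmb3 and Psmb6 were lost under both quantile normalization and cyclic loess. The 3 cutting subunits of the standard core differed in size of change. Psmb7, the trypsin-like subunit, read 7.94, 8.17 and 7.93 in control sperm, 8.06 and 7.18 in low protein sperm, 8.15 on the caloric restriction array, and 9.13 and 9.08 in epididymis. Its groups did not overlap, and the difference was -1.28 ± 0.23 (adjusted p = 0.00246), a 2.43-fold fall. Psmb6, the caspase-like subunit, read 8.25 to 8.70 over the 6 sperm arrays and 8.90 and 8.85 in epididymis. The gap was small but complete, with a difference of -0.46 ± 0.16 (adjusted p = 0.0371) that became 0.06 and 0.19 under quantile normalization and cyclic loess. Psmb5, the chymotrypsin-like subunit, read 8.23, 8.05 and 7.81 in control sperm, 7.65 and 8.11 in low protein sperm, 7.95 on the caloric restriction array, and 8.20 and 8.39 in epididymis. Control sperm replicate 1 overlapped the epididymis arrays, and the Psmb5 difference of -0.33 ± 0.19 was not past the threshold (adjusted p = 0.168; 0.08 and 0.17 under the same scalings). Differences between these subunits were not tested against each other.

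The 3 immunoproteasome subunits and the thymus-specific Psmb11 gave no calls between the tissues, with a median difference of -0.13. Levels of most of them were low. The mean over all 8 arrays was 5.73 for Psmb11, close to the filter level of 5.69, 6.22 for Psmb8 and 6.63 for Psmb10, but 7.90 for Psmb9. The part that low levels play in the lack of calls was not tested. Psmb8 read 6.43, 6.14 and 6.102 in control sperm, 6.12 and 6.48 in low protein sperm, 5.87 on the caloric restriction array, and 6.39 and 6.25 in epididymis, so both epididymis values lay within the sperm range. Its difference was -0.07 ± 0.17 (adjusted p = 0.760). Psmb9 differed by -0.23 ± 0.14 (adjusted p = 0.196), and by 0.14 and 0.22 after quantile normalization and cyclic loess. Psmb10 differed by -0.12 ± 0.15 (adjusted p = 0.511). Among 12 antigen presentation and interferon genes tested, 5 (41.7%) were lower in sperm and 0 higher, against 30.1% and 18.4% of all genes. At an unadjusted p under 0.05 in limma, 7 were lower and 1 higher, against 33.9% and 22.4% of all genes. Of the 12 differences, 4 were positive, the highest at 0.42. The largest differences were those of Erap1 (-1.81 ± 0.16), which trims peptides for presentation, B2m (-1.76 ± 0.27), the light chain of class I molecules, and Tapbp (-1.44 ± 0.19), which aids peptide loading.

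Of the 6 ATPases, 5 (83.3%) were lower in sperm, against 30.1% of all genes, with a median of -0.71 over the 6. The calls of Psmc1 and Psmc2 were lost under both quantile normalization and cyclic loess, and that of Psmc5 under quantile normalization. Psmc6 read 6.83, 7.26 and 7.09 in control sperm, 6.82 and 5.94 in low protein sperm, 6.82 on the caloric restriction array, and 8.40 and 8.21 in epididymis. Sperm and epididymis arrays did not overlap, and the difference was -1.57 ± 0.25 (adjusted p = 0.00127). Psmc3 was the exception, at 8.22, 8.16 and 8.06 in control sperm, 8.62 and 8.54 in low protein sperm, 9.09 on the caloric restriction array, and 8.10 and 7.97 in epididymis. Its epididymis values overlapped the control sperm and lay below all restricted-diet sperm, with a difference of 0.31 ± 0.16 (adjusted p = 0.147). Under quantile normalization and cyclic loess Psmc3 was higher in sperm, by 0.70 (adjusted p = 0.0211) and 0.91 (adjusted p = 0.0130).

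Among the non-ATPase subunits of the regulatory particle, 9 of 11 (81.8%) were lower, against 30.1% of all genes, with a median of -0.95. The calls of Psmd2, Psmd3 and Psmd11 were lost under both quantile normalization and cyclic loess. Psmd6, a lid subunit, showed the largest difference of all 49. It read 6.88, 7.35 and 7.21 in control sperm, 7.05 and 6.43 in low protein sperm, 7.25 on the caloric restriction array, and 8.81 and 8.68 in epididymis. The gap between the groups was wider than the whole range among sperm arrays, and the fall was 3.46-fold (-1.79 ± 0.21, adjusted p = 0.000305). Psmd14, the subunit that removes ubiquitin chains, read 6.86, 7.30 and 7.13 in control sperm, 7.02 and 6.27 in low protein sperm, 6.65 on the caloric restriction array, and 8.48 and 8.27 in epididymis. Its difference was -1.50 ± 0.22 (adjusted p = 0.0009), again with no overlap. Psmd12, another lid subunit, ranged from 5.94 to 6.84 in sperm and read 7.96 and 7.86 in epididymis (-1.44 ± 0.19, adjusted p = 0.000489). Psmd4, a ubiquitin receptor, ranged from 6.78 to 7.38 in sperm against 7.47 and 7.32 in epididymis, and its difference of -0.34 ± 0.15 was not past the threshold (adjusted p = 0.0828). Psmd8 read 8.49, 8.39 and 8.39 in control sperm, 8.61 and 8.65 in low protein sperm, 8.95 on the caloric restriction array, and 8.58 and 8.44 in epididymis, so its tissues overlapped. Under cyclic loess Psmd8 was called higher in sperm, by 0.66 (adjusted p = 0.0458), but not under quantile normalization (0.48, adjusted p = 0.0548).

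Activators of the core split by gene. Psme4, an activator that in mouse spermatids takes part in the removal of acetylated histones, read 8.06, 8.41 and 8.43 in control sperm, 8.26 and 7.86 in low protein sperm, 9.00 on the caloric restriction array, and 9.10 and 9.04 in epididymis. Only the caloric restriction array came near the epididymis arrays, and the difference, which is set by the other 5 sperm arrays, was -0.89 ± 0.18 (adjusted p = 0.00365; not past the threshold under quantile normalization or cyclic loess). Psme1, an interferon-inducible activator subunit, read 7.40 to 7.87 in sperm and 8.57 and 8.49 in epididymis (-0.89 ± 0.15, adjusted p = 0.00152). Its partner Psme2 read 6.88 to 7.83 in sperm and 7.71 and 8.07 in epididymis, with overlap and a difference of -0.41 ± 0.23 (adjusted p = 0.170). Psme3, the nuclear activator, differed by -0.57 ± 0.19 (adjusted p = 0.0344), a call also absent under both scalings. Psmf1, which inhibits the core in vitro, read 7.25 to 7.41 in control sperm and 7.42 and 7.40 in epididymis, with no call.

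Of 7 assembly factors, 5 (71.4%) were lower, against 30.1% of all genes, with a median of -0.85. The call of Psmd9 was lost under both quantile normalization and cyclic loess, and that of Psmd10 under quantile normalization. Psmd5, a chaperone of the ATPase ring, read 6.40, 6.82 and 6.72 in control sperm, 6.23 and 5.74 in low protein sperm, 6.14 on the caloric restriction array, and 7.66 and 7.78 in epididymis. The groups lay far apart, with a difference of -1.38 ± 0.23 (adjusted p = 0.00152). Psmg1 and Psmg2, which work as a pair in building the alpha ring, were both called lower, whereas the second such pair, Psmg3 and Psmg4, was not. Psmg3 read 5.77 to 6.48 in sperm and 5.74 and 5.88 in epididymis (0.29 ± 0.20, adjusted p = 0.253).

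Of 22 other genes of the ubiquitin-proteasome pathway tested, from a list of genes that are not members, 15 (68.2%) were lower and 0 higher. Over all genes, 30.1% were lower and 18.4% higher. At an unadjusted p under 0.05 in limma, 17 were lower and 1 higher, against 33.9% and 22.4% of all genes. The median was -1.02, and 4 of the 22 differences were positive, the highest at 0.59. The largest differences were those of Pomp (-1.76 ± 0.22), the maturation factor of the core, Zfand5 (-1.59 ± 0.24), an activator of the regulatory particle, and Usp14 (-1.54 ± 0.17), a deubiquitinase bound to it. The name-only gene Psmc3ip read 6.18, 6.32 and 6.06 in control sperm, 6.74 and 6.99 in low protein sperm, 7.12 on the caloric restriction array, and 5.76 and 5.90 in epididymis. All sperm arrays were above both epididymis arrays, by 0.68 ± 0.17 (adjusted p = 0.0116). Psme3ip1 read 7.11 to 7.58 in sperm and 7.01 and 6.82 in epididymis, with a difference of 0.41 ± 0.17 (adjusted p = 0.0703). Under quantile normalization and cyclic loess Psme3ip1 was called higher in sperm, by 0.58 (adjusted p = 0.0445) and 0.65 (adjusted p = 0.0152).

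Some genes were covered by more than 1 probe set. The 3 probe sets of Psma3 gave raw mean differences between sperm and epididymis of -0.94, -0.97 and -0.93, which were close to each other. Those of Psmb3 gave -0.73 for the probe set used and -1.14 for the other, those of Psmc1 -0.65 and -1.22, and those of Psmd2 -0.71 and -0.56. The second probe set of Psma5 read -0.34 where the one used read -0.90, so the size of that difference depended on the probe set.

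**Figure D2:**
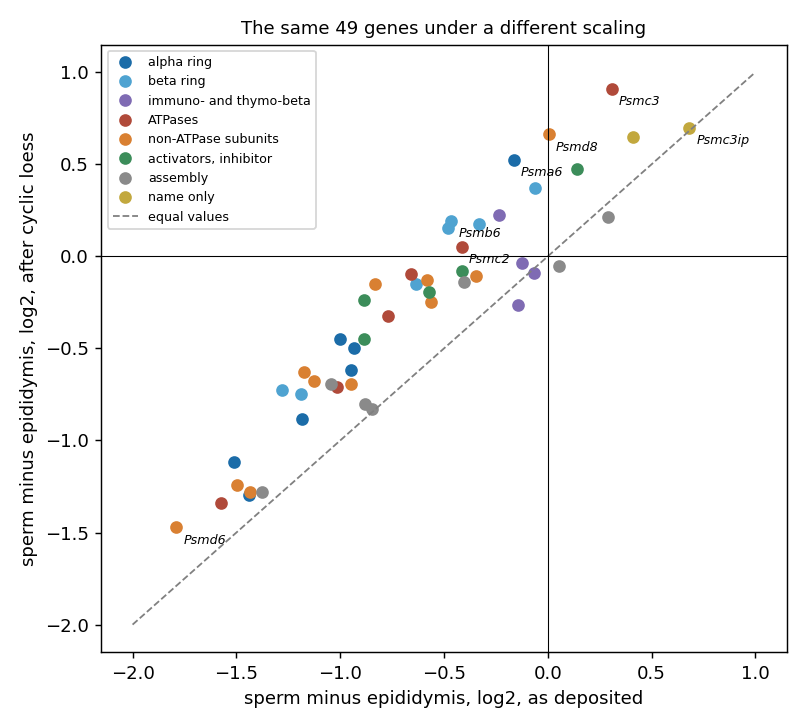
Sperm minus epididymis log2 difference of the 49 genes as deposited (x axis) and after cyclic loess (y axis), coloured by role; the dashed line marks equal values. Most points lie above the line, the median moves from -0.66 to -0.24, and 8 genes cross 0 (Psma6, Psmb1, Psmb4, Psmb5, Psmb6, Psmb9, Psmc2 and Psmg4) while Psmd6 stays the lowest.

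Promoters were examined because the subunits are known to be transcribed together in many cells. RefSeq windows on GRCm38.p6, from 250 bases before the gene start to 50 after it, were at hand for 42 of the 49 genes. More than 1 window was listed for 4 of these (Psma6, Psmc2, Psme2 and Psme3ip1), and a gene was counted if any of its windows held a match. The core of the antioxidant response element, TGAC, any 3 bases and then GC on either strand, which Nfe2l1 and Nfe2l2 bind, was in 6 of the 42 (14.3%: Psmb5, Psmb6, Psmc6, Psmd12, Psmd9 and Psme4) and in 14.0% of 27025 genes with a window. The CCAAT box, CCAAT on either strand, was in 16 (38.1%) against 41.1% of all genes, and in 5 of the 7 alpha ring genes. The gamma interferon site, TTC, any 3 bases and then GAA, was in 3 (7.14%: Psmb8, Psmd2 and Psmg1) against 9.55%, and the interferon-stimulated response element core (TTTC, any 2 bases and TTTC) was in 5 (11.9%: Psmb3, Psmd4, Psmd9, Psme1 and Psmg4) against 3.99%. Both strands were searched for each motif, and matches of different motifs were counted apart even where they shared bases. A match is a description of letters and not a site in use. Printed here are windows of a pair with a large fall in sperm that hold the response element core (Psmc6 and Psmd12), and of a pair that read higher in caloric restriction sperm, as given further on, and hold a CCAAT box (Psmc2 and Psma6); capitals mark the match. Psmc2 and Psma6 each have another window, which holds no CCAAT box.
Psmc6, chr14:45329574-45329873, plus strand: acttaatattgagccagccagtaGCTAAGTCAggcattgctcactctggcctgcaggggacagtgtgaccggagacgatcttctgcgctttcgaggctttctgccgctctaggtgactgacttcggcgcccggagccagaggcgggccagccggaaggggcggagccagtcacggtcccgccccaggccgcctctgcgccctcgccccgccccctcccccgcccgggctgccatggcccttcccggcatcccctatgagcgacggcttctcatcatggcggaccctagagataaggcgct
Psmd12, chr11:107479278-107479577, plus strand: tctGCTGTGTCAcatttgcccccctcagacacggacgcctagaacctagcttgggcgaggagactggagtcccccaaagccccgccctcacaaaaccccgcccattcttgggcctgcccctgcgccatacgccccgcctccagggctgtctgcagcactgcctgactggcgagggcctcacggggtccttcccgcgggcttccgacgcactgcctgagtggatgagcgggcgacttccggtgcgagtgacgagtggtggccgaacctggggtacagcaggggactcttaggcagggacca
Psmc2, chr5:21785025-21785324, plus strand: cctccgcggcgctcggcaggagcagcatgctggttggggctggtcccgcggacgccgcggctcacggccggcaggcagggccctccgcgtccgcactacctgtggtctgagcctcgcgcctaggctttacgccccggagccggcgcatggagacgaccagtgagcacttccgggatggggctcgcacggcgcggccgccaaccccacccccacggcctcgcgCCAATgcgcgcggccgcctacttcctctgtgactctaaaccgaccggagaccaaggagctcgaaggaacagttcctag
Psma6, chr12:55383972-55384271, plus strand: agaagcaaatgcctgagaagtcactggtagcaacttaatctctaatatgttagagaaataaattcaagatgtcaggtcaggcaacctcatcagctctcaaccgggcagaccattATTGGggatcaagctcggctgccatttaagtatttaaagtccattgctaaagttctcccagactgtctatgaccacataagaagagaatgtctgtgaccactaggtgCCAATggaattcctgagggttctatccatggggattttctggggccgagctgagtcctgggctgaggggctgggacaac

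Among sperm, the low protein diet gave no proteasome gene past the threshold, and 0% of all genes passed it. At an unadjusted p under 0.05, 4 of the 49 were higher, where 11.9% of all genes were, and 5 were lower, where 13.1% of all genes were. The difference was negative for 36 of the 49, with a median of -0.24 against -0.06 for all genes. After cyclic loess 27 were negative, and the median was -0.046 against 0.00 for all genes. After quantile normalization 36 were negative, and the median was -0.17 against -0.02 for all genes. Both low protein arrays lay below all 3 control arrays for 10 genes (20.4%; 22.4% of all genes) and above them for 8 (16.3%; 18.8% of all genes).

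The negative values were larger on low protein replicate 2 than on replicate 1. Set against the mean of the controls, the median shift of the 49 genes was -0.07 on replicate 1 and -0.42 on replicate 2, and over all genes it was -0.08 and -0.01. The median shifts of the 3 control arrays about their own mean had an SD of 0.09. Replicate 2 was the lowest of the 6 sperm arrays for 29 of the 49 genes (59.2%), where it was lowest for 34.0% of all genes. By role, its median shift was -0.96 in the alpha ring, -0.67 in the non-ATPase subunits and -0.49 in the ATPases, but -0.07 in the beta ring and 0.03 in the immunoproteasome and thymoproteasome genes. Without replicate 1, so with replicate 2 alone, 20 genes were lower and 3 higher, where 22.9% and 15.0% of all genes were. Without replicate 2 there was no call and the median was -0.07. Replicate 2 is also the array that correlated least with the other sperm arrays. Among the 6 sperm arrays it had the lowest summed epithelial (5757), smooth muscle (1439) and matrix (2234) marker levels and the highest spermatid level (63419). On replicate 1 these were 10326, 1818, 3008 and 50553. The leukocyte sums of replicates 2 and 1 were 2106 and 2011. The part that any of this plays was not tested. For some genes the low reading of replicate 2 depended on the probe set. Psma5 read 7.49 on replicate 1 and 6.39 on replicate 2 with the probe set used, but 6.94 and 7.19 with its other probe set. Psmd2 read 8.48 and 7.71 with the probe set used, but 8.35 and 8.27 with its other one. The other probe sets of Psma3, Psmb3 and Psmc1 also read lower on replicate 2 than on replicate 1.

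**Figure D3:**
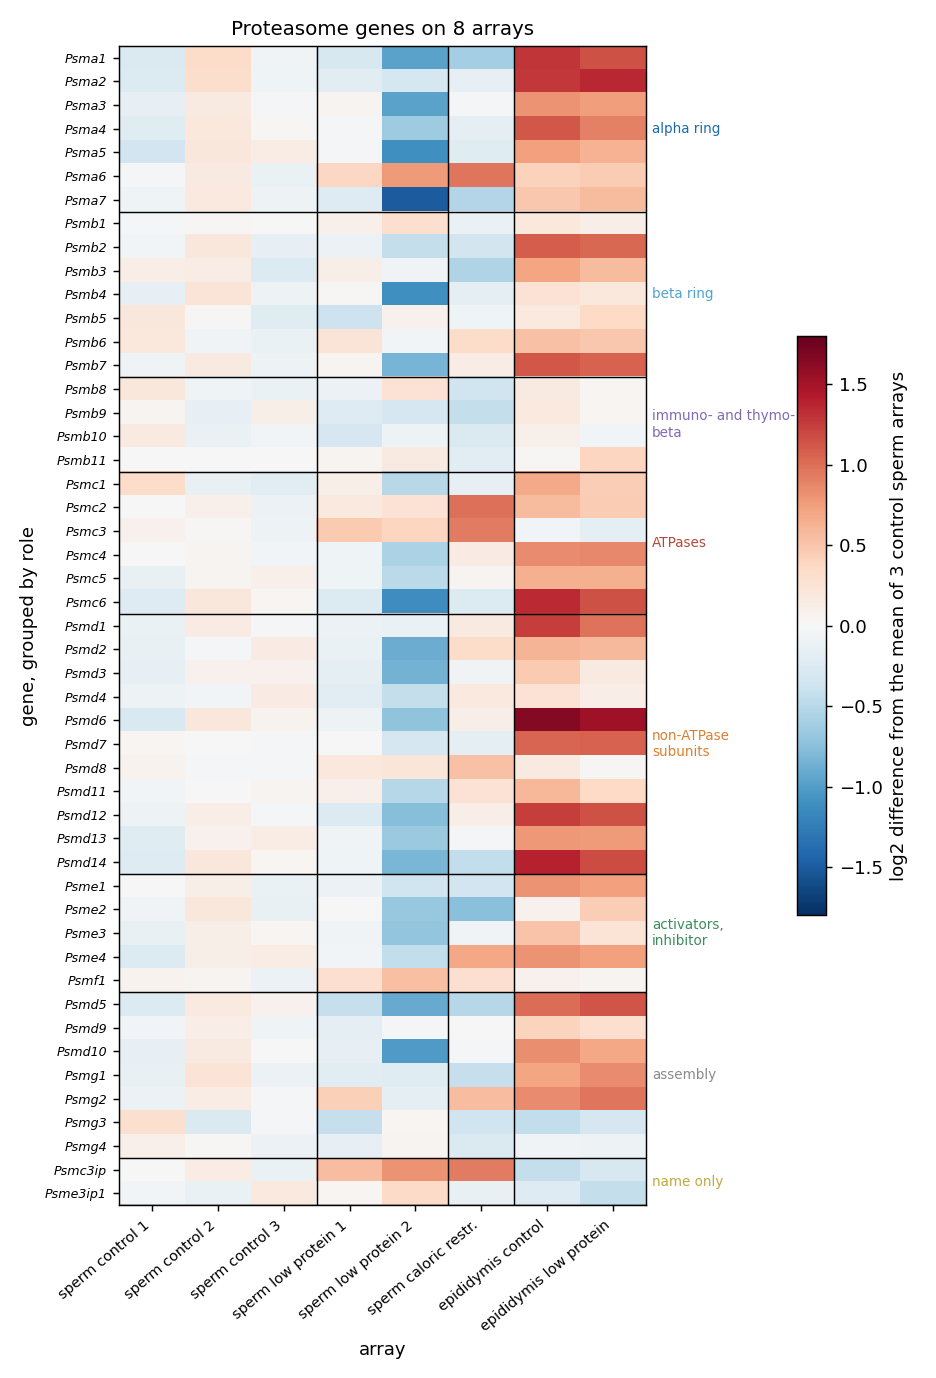
Log2 difference of each of the 49 genes (y axis, grouped by role) from the mean of the 3 control sperm arrays, on each of the 8 arrays (x axis); red is higher and blue lower. The epididymis columns have medians of 0.61 and 0.57, low protein sperm replicate 2 has a median of -0.42, and Psma6, Psmc2, Psmc3 and Psmc3ip are red in the caloric restriction column.

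The low protein members of smallest p ran both ways. Psmd5, with the per-array levels given above, was below all controls on both low protein arrays, by -0.66 ± 0.21 (adjusted p = 0.144). Psma7, of the alpha ring, read 7.91, 8.17 and 7.89 in control sperm and 7.76 and 6.49 in low protein sperm. The difference of -0.87 ± 0.34 (adjusted p = 0.176) therefore rested on replicate 2. Psmd12 (-0.51 ± 0.20, adjusted p = 0.177) and Psmc6 (-0.68 ± 0.27, adjusted p = 0.180) had the same array as their lowest. In the other direction, Psma6 was above all controls on both arrays, by 0.57 ± 0.19 (adjusted p = 0.147). Psmc3 differed by 0.43 ± 0.16 (adjusted p = 0.163), Psmf1 by 0.42 ± 0.17 (adjusted p = 0.180) and Psmc3ip by 0.68 ± 0.17 (adjusted p = 0.0993). None of these 8 values passed the threshold.

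Caloric restriction sperm, a single array, had 3 genes called higher and 0 lower. Over all genes, 5.53% were higher and 0.0368% lower. At an unadjusted p under 0.05 in limma, 6 of the 49 were higher and 2 lower, against 12.4% and 4.17% of all genes. Without the name-only genes, 2 of 47 were called higher. The test assumes that this array varies like the other sperm groups. Psmc2, an ATPase, read 7.63, 7.71 and 7.52 in control sperm, 7.79 and 7.88 in low protein sperm, and 8.62 on the caloric restriction array. The caloric restriction value stood above the other 5 sperm arrays and above both epididymis arrays (8.19 and 8.08), and the rise over control was 2.00-fold (1.00 ± 0.20, adjusted p = 0.0261). Psmc3, an ATPase of the same ring whose levels are given above, rose by 0.94 ± 0.20 (adjusted p = 0.0314). Psmc3ip rose by 0.94 ± 0.22 (adjusted p = 0.0469).

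Psma6 came next, at 0.96 ± 0.24 (adjusted p = 0.0613), not past the threshold. With quantile normalization none of the 3 calls remained, at adjusted p of 0.0939 for Psmc2, 0.113 for Psmc3 and 0.0893 for Psmc3ip. Leaving out any control array also ended all 3, with adjusted p of 0.0895 to 0.123 for Psmc2, 0.0891 to 0.159 for Psmc3 and 0.138 to 0.185 for Psmc3ip. Psmc3ip was also lost with no filter (adjusted p = 0.0545) and with a 50% filter (0.0529), and Psmc3 with an eBayes trend (0.0709). The size of the rise stayed between 0.84 and 1.14 for these 3 genes in all alternatives tried. All 3 calls held with median centring, cyclic loess and array weights. Psma6 also passed the threshold with median centring (0.99) and array weights (0.88), and Psme4 with cyclic loess (0.87). Over all genes, 6.3% were higher with median centring, 7.42% with cyclic loess and 13% with array weights. Leaving out either low protein array gave 5 genes higher and 1 lower, against 11.2% and 3.69% of all genes. These 2 fits give the same values, because a lone low protein array adds nothing to the error estimate.

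The 4 lowest p-values in the other direction under caloric restriction were those of Psme2, Psmb3, Psmb9 and Psma1. Psme2 read 7.57, 7.83 and 7.49 in control sperm, 7.63 and 6.95 in low protein sperm, and 6.88 on the caloric restriction array. Its difference from control was -0.75 ± 0.29 (adjusted p = 0.246). Psmb3 differed by -0.55 ± 0.23 (adjusted p = 0.296), Psmb9 by -0.43 ± 0.21 (adjusted p = 0.350) and Psma1 by -0.61 ± 0.32 (adjusted p = 0.391). None passed the threshold. The size of the Psmb3 difference depended on the probe set. The one used read 8.01, 8.03 and 7.64 in control sperm and 7.35 on the caloric restriction array. Its other probe set read 7.41, 7.77 and 7.64 in control sperm and 7.38 on the caloric restriction array, a smaller gap. The caloric restriction array lay below all controls for 20 of the 49 (40.8%; 45.8% of all genes) and above them for 14 (28.6%; 27.3% of all genes). The median difference was -0.07 against -0.11 over all genes. Cyclic loess moved the 2 medians to 0.06 and 0.00, and quantile normalization moved them to -0.14 and -0.11. Relative to all genes, the median of the 49 was 0.04 as deposited, 0.06 after cyclic loess and -0.03 after quantile normalization. Its sign thus depended on the scaling.

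With the 3 restricted-diet arrays set as 1 group against the 3 controls, 1 gene was higher, Psmc3ip by 0.77 ± 0.17 (adjusted p = 0.0473), and 0 were lower. Over all genes, 2.72% were higher and 0.0294% lower. At an unadjusted p under 0.05 in limma, 4 of the 49 were higher and 3 lower, against 12.5% and 14.0% of all genes. Without the name-only genes there was no call among the 47. This comparison shares its controls and arrays with the 2 diet comparisons above and is not independent of them. The Psmc3ip call was lost without any one of the 3 control arrays (adjusted p = 0.123 to 0.262) and without the caloric restriction array (0.0993). The next smallest p-values were for Psma6 (0.70 ± 0.19, adjusted p = 0.0796), Psmc3 (0.60 ± 0.18, adjusted p = 0.102) and Psmf1 (0.38 ± 0.15, adjusted p = 0.160). In the other direction they were for Psmd5 (-0.61 ± 0.19, adjusted p = 0.107), Psma1 (-0.62 ± 0.22, adjusted p = 0.130), Psma7 (-0.75 ± 0.29, adjusted p = 0.152) and Psme2 (-0.48 ± 0.22, adjusted p = 0.199).

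All 3 restricted arrays lay above all 3 controls for 6 genes (12.2%), where 15.0% of all genes did so, and below them for another 6 (12.2%), where 18.1% did. The first 6 were Psma6, Psmc2, Psmc3, Psmc3ip, Psmd8 and Psmf1. The second 6 were Psma1, Psma7, Psmb9, Psmc6, Psmd5 and Psmg1. Both shares were near or below the background. In all 3 restricted arrays the summed spermatid marker level (50553 to 63419) was above that of the controls (32328 to 42989), and the summed epithelial level (5757 to 10338) was below theirs (12242 to 15488). Of the 20 spermatid markers, 8 (40%) were called higher in caloric restriction, where 5.53% of all genes were. In the restricted diets together 6 (30%) were, where 2.72% of all genes were, and under low protein 0, where 0% were. Of 16 epithelial markers tested, 2 (12.5%) were called lower in caloric restriction, where 0.0368% of all genes were. None was called in the restricted diets together or under low protein. The part of these markers in the values of the proteasome genes was not tested.

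**Figure D4:**
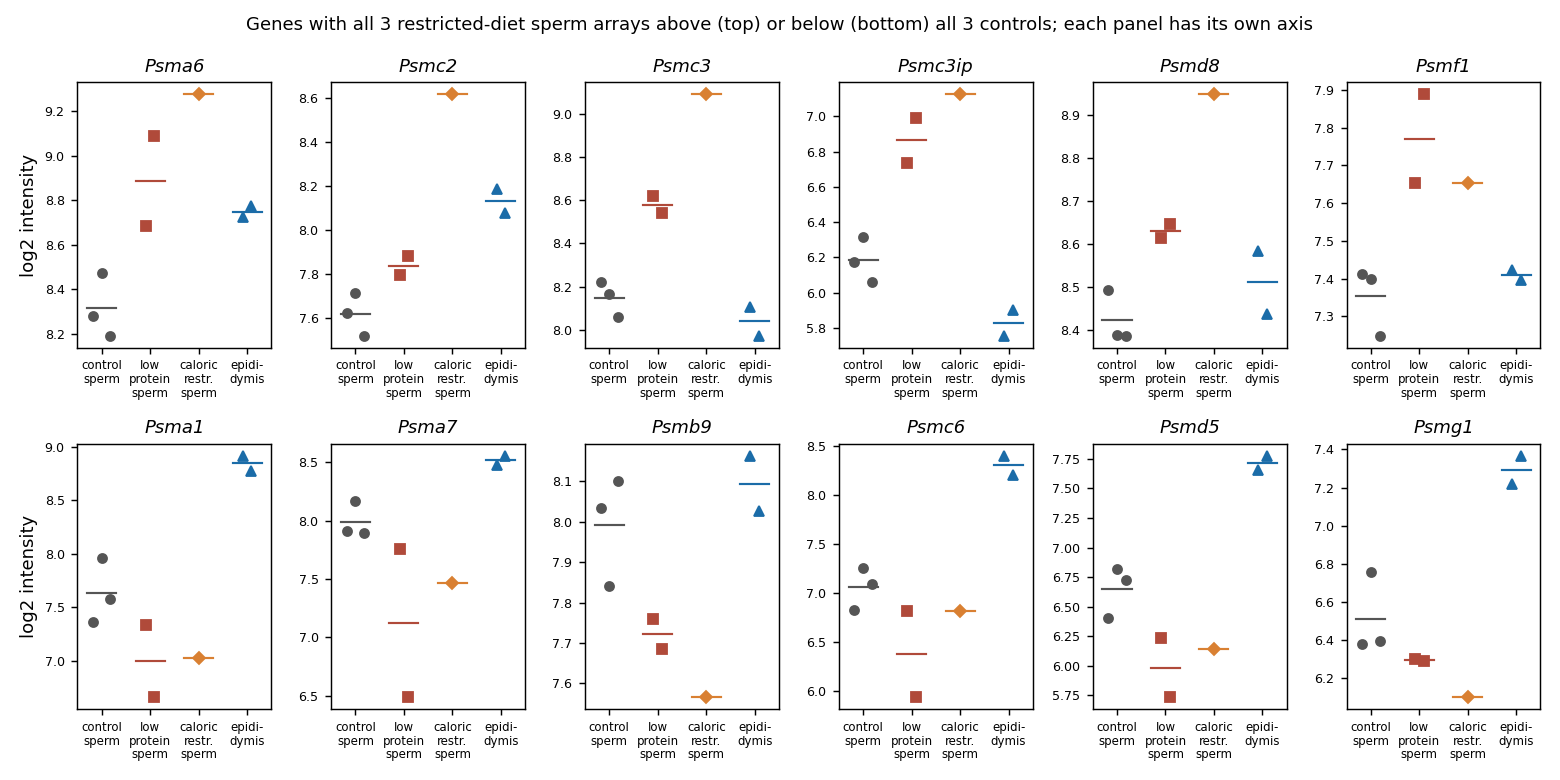
Log2 intensity (y axis, a scale of its own in each panel) of the 12 genes whose 3 restricted-diet sperm arrays all lay above (top) or below (bottom) the 3 control sperm arrays; each point is 1 array and each bar a group mean. Psmc2 and Psmc3 reach 8.62 and 9.09 in caloric restriction sperm, above both epididymis arrays, while Psma1, Psma7, Psmc6, Psmd5 and Psmg1 lie below epididymis in all sperm.

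Low protein and caloric restriction sperm, compared directly, gave 0 calls among the 49 and in 0% of all genes. At an unadjusted p under 0.05, 5 of the 49 were lower in low protein and 0 higher, against 7.37% and 2.31% of all genes. Psme4 gave the largest difference, at -0.94 ± 0.27 (adjusted p = 0.241), followed by Psmd2, the scaffold subunit of the regulatory particle, at -0.84 ± 0.32 (adjusted p = 0.442). The probe set used for Psmd2 read 8.48 and 7.71 in low protein sperm and 8.94 on the caloric restriction array. Its other probe set read 8.35 and 8.27 in low protein sperm and 8.83 on the caloric restriction array, a smaller gap. Psmc2 differed by -0.78 ± 0.21 (adjusted p = 0.225) and Psmc3 by -0.51 ± 0.21 (adjusted p = 0.482). Psmb3 read in the opposite direction, at 0.56 ± 0.25 (adjusted p = 0.525), as did Psmb8 at 0.43 ± 0.25 (adjusted p = 0.647). The direction for Psmb3 depended on the probe set. Its other probe set read 7.45 and 7.17 in low protein sperm, with the caloric restriction array between them at 7.38. With low protein replicate 2 alone, 12 genes were lower (10.8% of all genes), and with replicate 1 alone, 0 (2.22% of all genes).

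In epididymis, low protein could be set against control only as 1 array against 1, with no replicate check and no test. The difference was negative for 35 of the 49 and positive for 13, with a median of -0.07 against -0.01 over all genes. It ran from -0.30 (Psmd3, 7.98 to 7.67) to 0.37 (Psmb11, 5.69 to 6.06), and Psme2 read 7.71 and 8.07. No proteasome gene differed by 0.5 or more, and 1.85% of all genes did. The difference between sperm and epididymis in the low protein effect gave 0 calls among the 49 and in 0% of all genes, and 0 of the 49 at an unadjusted p under 0.05 in limma, which 4.06% of all genes passed upward and 0.434% downward.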

How the data were processed

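The authors deposited 1 log2 intensity per probe set and array. Per the submitters' processing notes, RMA produced these values, with no version given. The values ran from 1.17 to 14.53, with array medians of 6.08 to 6.17. RMA as usually run equalizes arrays, and where that is done changes in total RNA are hidden. How far these arrays were equalized is not known. Quantile normalization of the deposited values still moved the median tissue difference of the 49 genes from -0.66 to -0.29. Of 33660 probe sets, 21222 named 1 gene, 1541 several and 10897 none. Symbols of 21137 were taken from a GRCm38.p6 gene table by gene identifier, whether or not the name changed, and 85 without a match kept theirs. Each gene was represented by its probe set of highest mean, and genes at or under a log2 level of 5.69 (the lowest 30%) were left out. A further probe set names Psme2 together with Psme2b and was not used. A further matching gene is not reported here.

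Tests used limma 3.58.1 in R 4.3.3 (lmFit, eBayes, two-sided) with Benjamini-Hochberg adjustment over 13587 genes at 0.05, and errors are its moderated standard errors. The tissue comparison fitted additive tissue and diet terms to all 8 arrays. Caloric restriction has its own term there, so 5 sperm arrays set the tissue difference. Diets were compared over the 6 sperm arrays. The tissue difference of the low protein effect used a mean per group. The fits were tested on simulated arrays, and recovered nearly all changes of 2 on the log2 scale but fewer of 1, the fewest in that last comparison. Figures were drawn with matplotlib 3.10.9. The number of arrays limits the precision.

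The rule for named genes gave differences with errors for up to 8 rises and 8 falls per comparison among called genes. Where fewer than 4 were called, those of smallest p filled up to 4. Psmb5 to Psmb10, Psme1 to Psme4, Psmd4 and Psmd14 were always given for sperm against epididymis. The members and gene lists were chosen with earlier results of these data known. Alternatives were other scalings, filters, probe set means, eBayes options, array weights, thresholds and each array left out.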

Additional observations from a re-analysis of the deposited data

How the results depend on the processing

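For sperm against epididymis, calls were 17 lower and 3 higher (median -0.29) with quantile normalization and 20 and 4 (median -0.24) with cyclic loess. The median was -0.83 with a 50% filter and -0.56 with array weights. Higher calls were 2 at an adjusted p under 0.10, 0 with tissue as the only term and 0 without the 2 name-only genes. Leaving out an array gave 14 to 32 lower, 0 to 1 higher and medians of -0.79 to -0.61. Signs turned for 7 of the 49 genes with quantile normalization and 8 with cyclic loess, and for Psmd8 with median centring. Among genes named by the rule for this comparison these were Psmb5 (0.076 with quantile normalization, 0.17 with cyclic loess), Psmb6 (0.058, 0.19), Psmb9 (0.14, 0.22). Leaving out an array turned Psmb8 (-0.16 to 0.045 over the fits without 1 array, positive without the control epididymis array). For low protein, the median was -0.046 with cyclic loess and 1 gene was higher at 0.10. Leaving out an array gave 0 to 3 higher, 0 to 20 lower and medians of -0.42 to -0.073. For caloric restriction, higher calls were 0 with quantile normalization and 6 (4 lower) with array weights, the median was 0.059 with cyclic loess, and leaving out an array gave 0 to 5 higher and 0 to 1 lower. Over all genes, caloric restriction gave 3.68% higher with quantile normalization, and 13% higher and 7.12% lower with array weights. Median centring and cyclic loess each gave 4 of the 49 higher there, against 6.3% and 7.42% of all genes. For the restricted diets, higher calls were 2 with cyclic loess (median -0.031), array weights (1 lower) and a threshold of 0.10. Over all genes, 2.98% were higher there with cyclic loess, and 8.06% higher and 2.95% lower with array weights. They were 0 with no filter, a 50% filter, an eBayes trend or without the name-only genes. Leaving out an array gave 0 to 2 higher, 0 to 1 lower and medians of -0.24 to -0.069. For low protein against caloric restriction, the median was -0.14 with either scaling, and leaving out an array gave 0 to 12 lower and medians of -0.38 to -0.035. Where no value shows the cause of these changes, the cause was not tested. No paired analysis was possible because the labels give each sample a letter of its own.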
